A study of Mus musculus with 69 samples.

Results

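The genes of the proteasome were followed in the hearts of mice exposed to cyanide. They were taken as every probe set annotated with a single gene symbol of the form Psma, Psmb, Psmc, Psmd, Psme, Psmf or Psmg plus a number, which gave 72 probe sets for 45 genes, out of 45141 probe sets on the array and 17097 genes that had a probe set of their own. Of these, 61 probe sets for 44 genes were bright enough to be tested, meaning that the mean of at least 1 group exceeded 3.23 on the log2 scale. The 11 left out were dim second probe sets of genes that were otherwise measured and the only probe set of Psmb11. Psmb11 encodes a catalytic subunit made in the cortex of the thymus. A pair of probe sets whose annotation joins Psmd13 with the neighbouring gene Sirt3 did not enter the set.

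All animals were adult male CD-1 mice, an outbred stock, weighing 20 to 35 g and awake during exposure. Potassium cyanide (KCN) was given under the skin at 8 mg/kg and compared with the same volume of saline, with hearts taken 1, 2, 4, 8 and 24 h later. Hydrogen cyanide (HCN) was breathed through the nose at 327 ppm and compared with air, with hearts taken 1, 2, 4 and 24 h later. The 69 arrays fall into 18 groups, 37 arrays for injection and 32 for inhalation, with 4 arrays per group, or 3 for saline at 2 h, saline at 4 h and KCN at 4 h. The labels call them biological replicates, and each array was treated as a separate animal. No other allele or agent is named for any group. Whole-heart RNA mixes all cell types of the organ, so fewer cells of a type and less RNA per cell cannot be told apart.

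The proteasome is the main machine by which cells degrade proteins marked with ubiquitin. Its 20S core is a barrel whose outer rings are made of alpha subunits (Psma genes) and whose inner rings of beta subunits (Psmb genes) hold the catalytic sites. The 19S cap recognises ubiquitin chains, removes them and threads the substrate into the core with a ring of ATPases (Psmc genes) and a set of non-ATPase subunits (Psmd genes). Interferon replaces the catalytic subunits Psmb5, Psmb6 and Psmb7 by Psmb8, Psmb9 and Psmb10, which form the immunoproteasome that cuts peptides for presentation to T cells. Psme1 and Psme2 form an alternative, interferon-inducible cap, Psmf1 encodes an inhibitor of the core, and Psmg proteins are chaperones of core assembly. In heart muscle the proteasome removes damaged and surplus proteins, and its assembly and activity need ATP.

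Pairs of arrays had correlations of 0.968 to 0.995, and the number of arrays limits the precision. Transcripts that define heart muscle were near the top of the scale, with means over all arrays of 13.0 for Tnnt2 and 13.5 for Actc1. The actin controls give a measure of RNA integrity, as the log2 signal of their 3' end minus that of their 5' end. This actin ratio was 1.49, 1.95, 0.794 and 0.645 on the HCN 2 h arrays and 0.317 to 0.652 in air at 2 h, with the fourth HCN array inside the air range. It was also higher at HCN 24 h (0.641 to 1.25) than in air at 24 h (0.32 to 0.414), and lower at KCN 24 h (0.338 to 0.613) than in saline at 24 h (0.783 to 1.00) and at KCN 1 h (0.374 to 0.568) than in saline at 1 h (0.644 to 1.06). Replicate 1 of air at 2 h stood apart in its thymocyte transcripts: the mean level of 5 marker genes was 7.55 there, against a median of 2.75 in its group and 2.59 to 2.75 at HCN 2 h. The highest array of air at 1 h reached 5.75 for the same markers. Airway epithelial transcripts varied between hearts: the mean level of 4 markers was 2.75 to 2.88 in saline at 1 h, 2.82 to 2.92 in saline at 4 h, 6.93 to 8.98 at KCN 1 h and 5.84 to 8.47 at KCN 4 h. At 24 h it was 2.72 to 6.34 in saline and 2.83 to 8.16 after KCN, and at 2 h 3.17 to 7.21 in air and 2.95 to 8.79 after HCN, and its part in any change was not tested. The mean level of 4 adipocyte markers was 5.59 to 7.02 in saline at 1 h and 7.08 to 8.93 at KCN 1 h, and 6.26 to 7.26 in saline at 4 h and 7.94 to 8.59 at KCN 4 h. Changes below are log2 differences ± SE from limma, with p-values adjusted by Benjamini-Hochberg over all probe sets tested. "Rose" and "fell" mark an adjusted p of at most 0.05, and "not overlapping" means that the lowest array of the higher group lay above the highest of the lower group.

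Each cyanide group was set against its own control at the same time, which asks when the proteasome genes responded to each route of exposure. Most of these genes moved little at most times. The largest numbers came 2 h after HCN, where 3 of 61 probe sets rose and 20 fell, and 24 h after KCN, where 7 rose and 4 fell. At KCN 1 h 1 probe set rose and none fell (1.64% of the proteasome probe sets, against 4.09% of all tested, of which 1.57% rose and 2.52% fell). At KCN 2 h none rose and 1 fell (1.64%, against 6.59% of all, 3.29% higher and 3.3% lower). At KCN 4 h 1 rose and 1 fell (3.28%, against 2.26%, 1.21% higher and 1.05% lower). At KCN 8 h limma called none (against 0.336%, 0.138% higher and 0.198% lower), and 7 had an unadjusted p under 0.05. The 11 changes at KCN 24 h are 18% of the proteasome probe sets, against 11.9% of all, 6.79% higher and 5.13% lower. At HCN 1 h 1 rose (1.64%, against 2.68%, 1.38% higher and 1.3% lower). The 23 at HCN 2 h are 37.7%, against 25.3%, 8.79% higher and 16.5% lower. At HCN 4 h 1 fell (1.64%, against 7.35%, 2.87% higher and 4.48% lower), and at HCN 24 h 6 fell (9.84%, against 14.3%, 5.08% higher and 9.24% lower). Only at KCN 4 h, KCN 24 h and HCN 2 h was the share called above that of all probe sets.

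Both large counts moved with the actin ratio. With that ratio as a term in the fit, HCN 2 h had 3 changes, all higher (4.92%, against 11.3% of all), of which Psmc4 alone was among the 23, KCN 24 h had 4 (6.56%, against 9.51%) and HCN 24 h had 1 (1.64%, against 2.74%). The other called there at HCN 2 h were the ATPase Psmc5 (0.34 ± 0.12, adjusted p = 0.0477) and a second probe set of Psmd11 (0.56 ± 0.14, adjusted p = 0.00613). The counts at the other times changed by at most 1 probe set under that term, and at KCN 1 h the 1 call was then a fall, that of Psmd2 (-0.31 ± 0.08, adjusted p = 0.0179). The plot of shares beside the counts with the actin ratio shows this for every comparison.

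**Figure D1:**
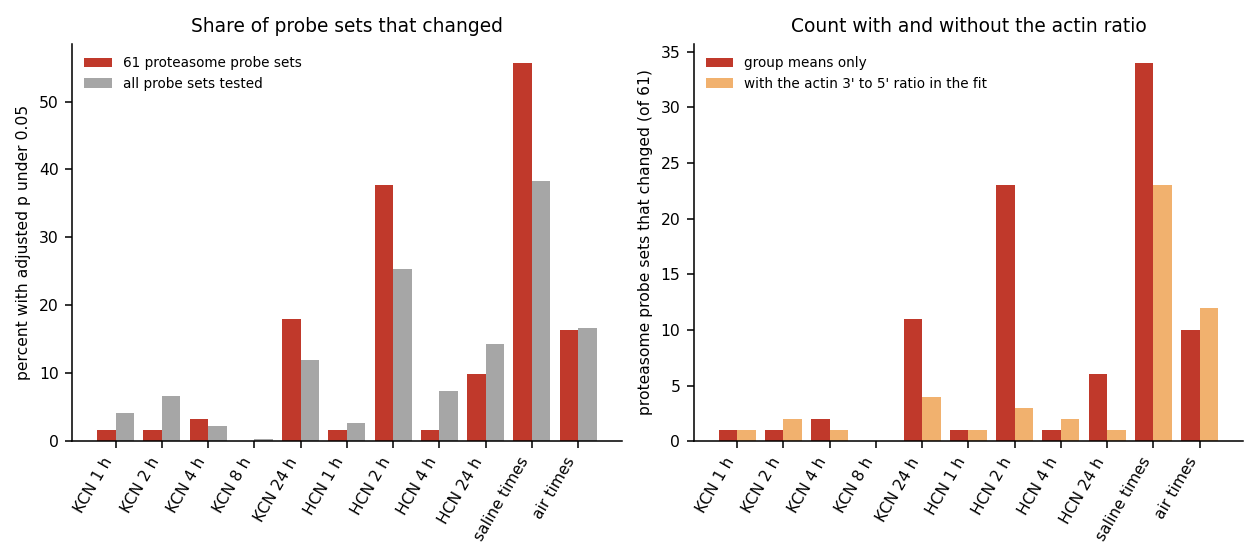
Left, the percent of the 61 proteasome probe sets (red) and of all probe sets tested (grey) with an adjusted p under 0.05, for 9 cyanide comparisons and for the control groups over time. Right, the number of proteasome probe sets that changed in the fit of group means (red) and with the actin 3' to 5' ratio added (orange); at HCN 2 h it is 23 and 3, and at KCN 24 h 11 and 4.

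**Figure D2:**
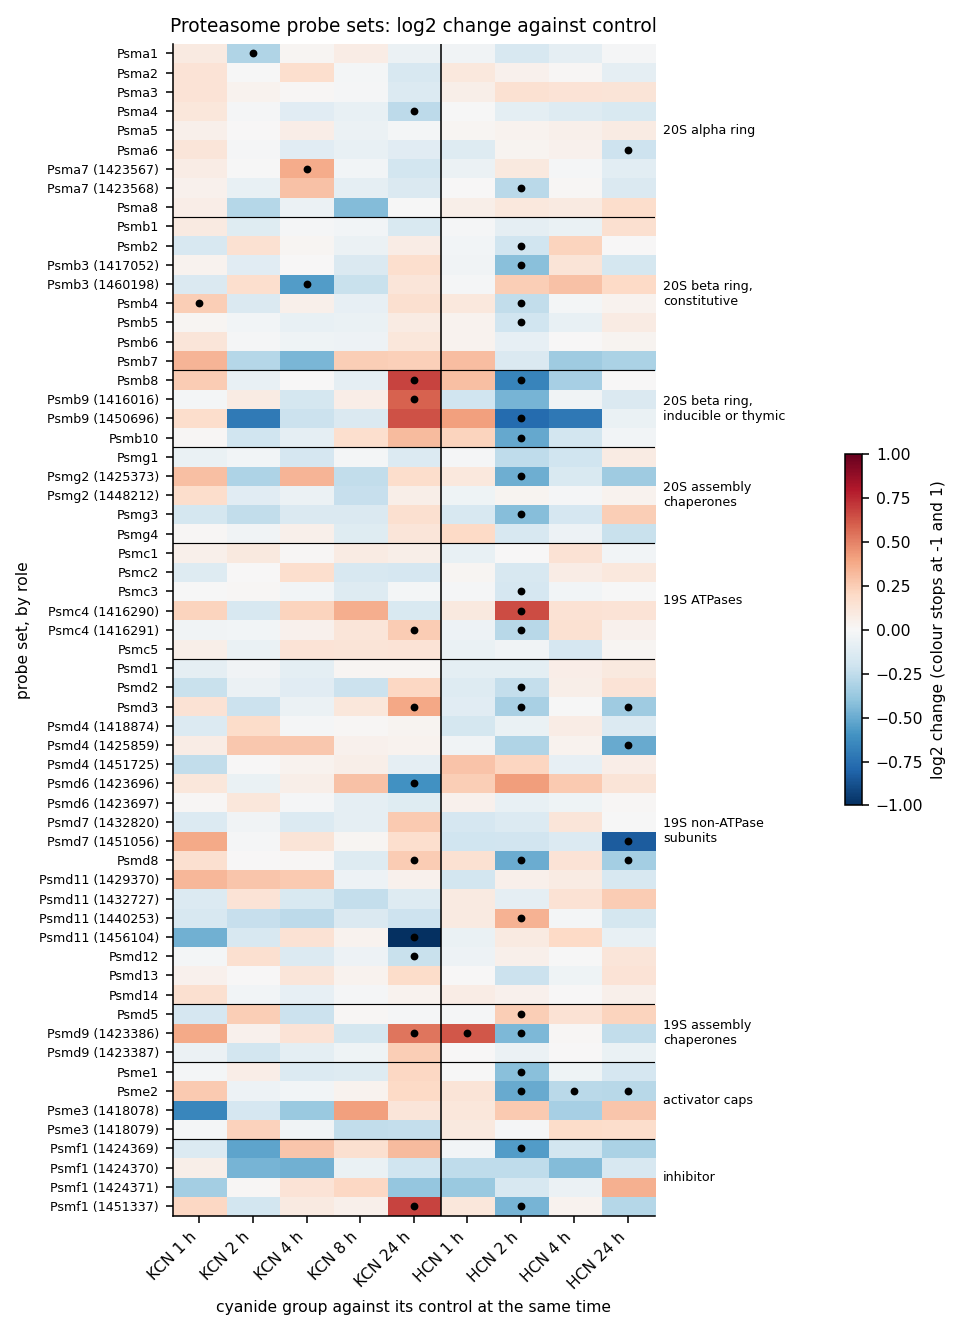
Log2 change of each of the 61 tested proteasome probe sets (rows, grouped by role) in each cyanide group against its control (columns); red is higher and blue lower, and a black dot marks an adjusted p under 0.05. The column of HCN 2 h holds 23 dots, of which 20 are on blue cells, and the inducible beta subunits are blue at HCN 2 h and red at KCN 24 h.

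At 2 h after HCN inhalation the proteasome genes were, on the deposited scale, mostly lower than in air. The median change of the 61 probe sets was -0.14, against -0.04 over all probe sets tested, and 42 of the 61 lay below 0. By role, and beside 16.5% of all probe sets that fell, 3 of 4 probe sets of the inducible beta subunits fell, 4 of 8 of the constitutive beta subunits, 2 of 4 of the activator caps, 2 of 4 of the inhibitor Psmf1 and 2 of 5 of the core assembly chaperones. In the alpha ring 1 of 9 fell, among the ATPases 2 of 6 and among the other 19S subunits 3 of 18. No difference between roles was tested, and of the inducible falls Psmb10 alone stayed called without air 2 h replicate 1. Of all 23 changes 17 stayed called without that air array, 8 without the 2 HCN arrays of highest actin ratio and 1 with the ratio in the fit. The direction of these counts depends on the scale. The median of all tested probe sets was itself 0.144 lower at HCN 2 h than in air (-0.144 as a log2 difference), and with every array shifted to a common median 10 proteasome probe sets rose and 6 fell, and their median change was -0.00. With quantile normalization within the route 3 rose and 17 fell. The shares over all probe sets on these scales are not given, so these counts are not read against the whole array. The 6 that fell under the common median as well were Psmb10, Psme1, Psme2, Psmb3, Psmd8 and Psmg2. For Psmb3 this was the dimmer probe set, and its brighter one rose on that scale (0.39, adjusted p = 0.0052).

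Psmb8, Psmb9 and Psmb10, the catalytic subunits of the immunoproteasome, were among the members with the largest falls at HCN 2 h, with Psmb9 and Psmb8 lowest of all and a dim probe set of Psmf1 (-0.56 ± 0.19) between them and Psmb10. Psmb8 read 8.31, 7.0, 7.19 and 7.04 on the air arrays and 6.73, 6.94, 6.71 and 6.51 after HCN. The groups did not overlap, but the first air array stood far above the other air arrays. The change was -0.66 ± 0.23 (adjusted p = 0.0302 in limma), and without air 2 h replicate 1 it was -0.35 (adjusted p = 0.295). Psmb9 read 7.43, 6.30, 6.40 and 6.04 in air and 5.93, 6.29, 5.72 and 5.17 after HCN, with the same air array highest and an overlap between the groups. Its change was -0.77 ± 0.29 (adjusted p = 0.0427), and without that array -0.47 (adjusted p = 0.275). Psmb11, too dim to be tested, read 3.81 on that air array and 2.54 to 2.72 on the other 3. Leaving out 1 array at a time ended the call of Psmb8 on 4 of 8 arrays (air 2 h replicate 1 and HCN 2 h replicates 1, 3 and 4) and that of Psmb9 on 5 of 8, with changes of -0.79 to -0.35 and -0.94 to -0.47.

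Psmb10 did not depend on that array. It read 9.32, 9.07, 9.31 and 8.93 in air and 8.86, 8.37, 8.69 and 8.66 after HCN, and every HCN array lay below every air array. The change was -0.51 ± 0.12 (adjusted p = 0.00129), and the call held without any 1 of the 8 arrays (highest adjusted p = 0.0166). With the actin ratio in the fit the changes of Psmb8, Psmb9 and Psmb10 were -0.66, -0.85 and -0.30 (adjusted p = 0.146, 0.127 and 0.189). Without the 2 HCN arrays of highest actin ratio, an alternative chosen after seeing the data, they were -0.77, -1.10 and -0.48 (adjusted p = 0.0672, 0.0301 and 0.0231). Of their constitutive counterparts Psmb5 fell by 0.20 ± 0.07 (adjusted p = 0.0362), and was at -0.02 (adjusted p = 0.936) with the actin ratio in the fit. Psmb6 changed by -0.08 ± 0.07 (adjusted p = 0.403) and Psmb7 by -0.14 ± 0.15 (adjusted p = 0.519).

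**Figure D3:**
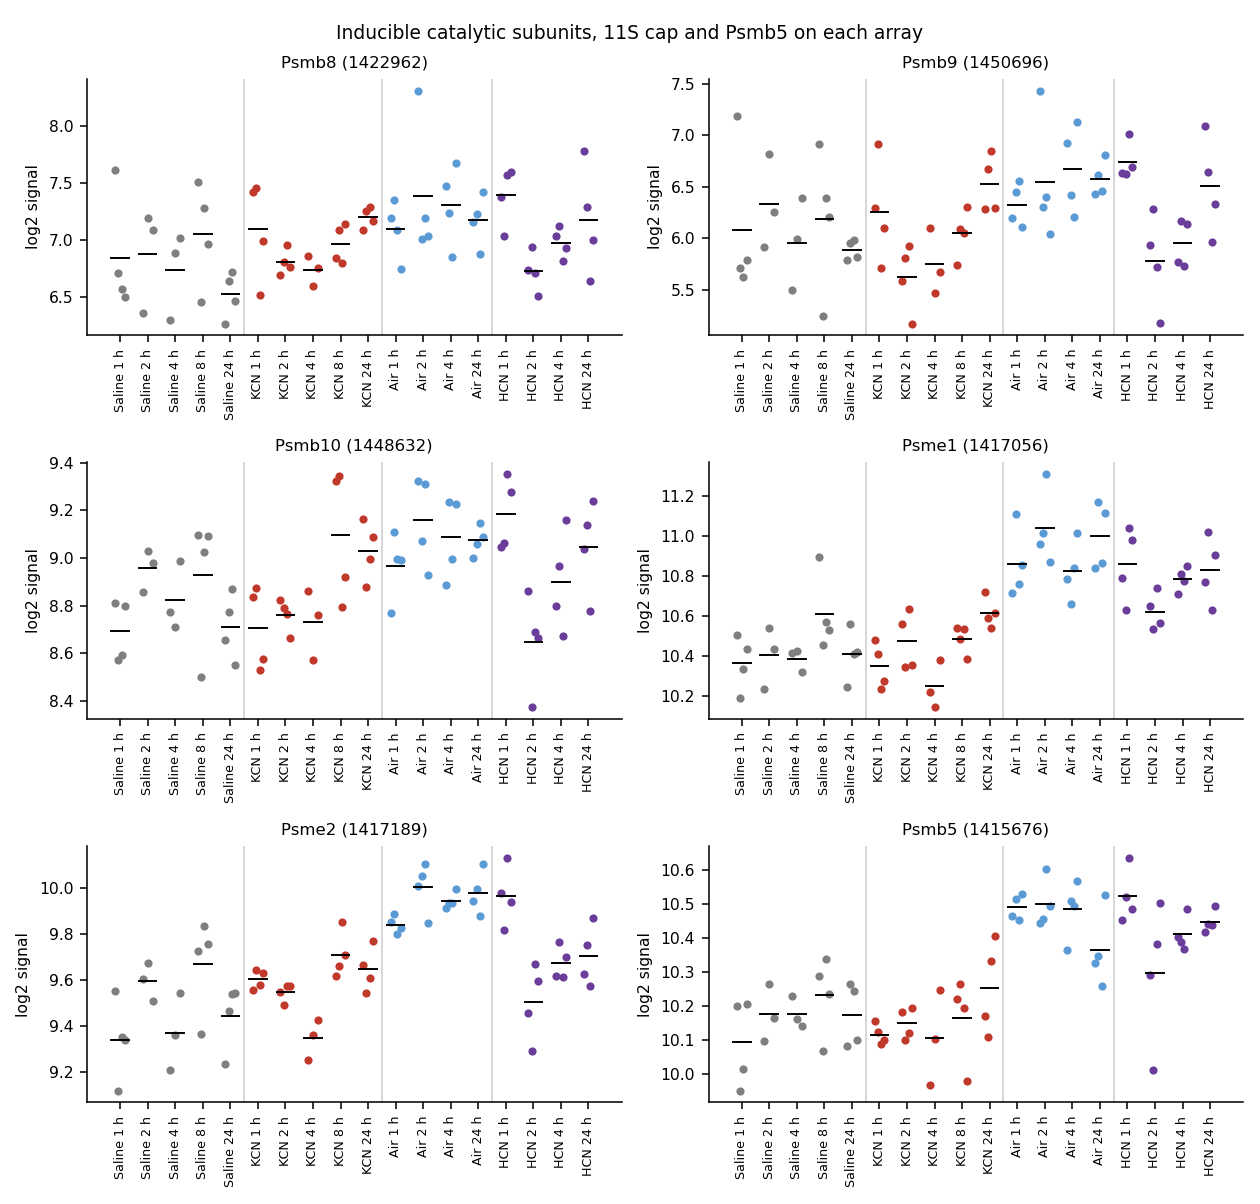
Log2 signal of Psmb8, Psmb9, Psmb10, Psme1, Psme2 and Psmb5 on each array (points) of the 18 groups along the horizontal axis, with the group mean as a black line. In the inhalation groups the HCN 2 h points of Psmb10 (8.37 to 8.86) and Psme2 (9.29 to 9.67) lie below all air 2 h points, and 1 air 2 h point of Psmb8 (8.31) stands above the rest.

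Psme1 and Psme2, the subunits of the interferon-inducible cap, fell together at HCN 2 h. Psme2 read 10.01, 10.05, 10.11 and 9.85 in air and 9.46, 9.29, 9.67 and 9.60 after HCN, a change of -0.50 ± 0.09 (adjusted p = 1.42e-05). Psme1 read 10.96, 11.02, 11.31 and 10.87 in air and 10.65, 10.53, 10.74 and 10.56 after HCN, a change of -0.42 ± 0.10 (adjusted p = 0.00105). In neither gene did the groups overlap, and Psme2 kept its call without any 1 of the 8 arrays (highest adjusted p = 0.000442). Without the 2 arrays of highest actin ratio Psme2 and Psme1 were at -0.37 and -0.39 (adjusted p = 0.0102 and 0.0277). Under the actin term they were at -0.21 and -0.29 (adjusted p = 0.112 and 0.113). Psme3, which forms a nuclear cap of its own, changed by -0.02 ± 0.12 (adjusted p = 0.947) on its brightest probe set.

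Promoters are shown for Psmb8, Psmb9, Psmb10, Psme1 and Psme2, each called as a fall at HCN 2 h on the deposited scale. The calls of Psmb8 and Psmb9 did not hold without air 2 h replicate 1. Psmb5 is shown as the constitutive counterpart of Psmb8, and Psmd12 as a member that carries several of the motifs. Psmb9 and Psmb8 are close neighbours in the genome with Tap1, a peptide transporter gene, between them, and Psme1 and Psme2 are separated by Emc9 alone. Each sequence is the 250 bases before the annotated start, from RefSeq on GRCm38.p6, written 5' to 3' on the gene's strand. Capitals mark matches, on either strand, to the antioxidant response element core TGACNNNGC, the interferon regulatory factor motif (GAAA, any 2 bases, GAAA), the GC box GGGCGG, the CCAAT box and the ETS motif CCGGAAG.
Psmb8, chr17:34197945-34198194, plus strand: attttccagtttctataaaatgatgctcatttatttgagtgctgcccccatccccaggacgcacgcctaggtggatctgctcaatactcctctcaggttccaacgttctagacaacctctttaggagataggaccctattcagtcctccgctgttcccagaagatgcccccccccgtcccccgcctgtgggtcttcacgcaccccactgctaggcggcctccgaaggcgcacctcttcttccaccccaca
Psmb9, chr17:34187331-34187580, minus strand: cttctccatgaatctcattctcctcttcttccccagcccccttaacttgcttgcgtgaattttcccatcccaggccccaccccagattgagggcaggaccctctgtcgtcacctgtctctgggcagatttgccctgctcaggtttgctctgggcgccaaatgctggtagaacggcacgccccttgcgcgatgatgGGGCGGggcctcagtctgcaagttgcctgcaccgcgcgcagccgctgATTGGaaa
Psmb10, chr8:105938393-105938642, minus strand: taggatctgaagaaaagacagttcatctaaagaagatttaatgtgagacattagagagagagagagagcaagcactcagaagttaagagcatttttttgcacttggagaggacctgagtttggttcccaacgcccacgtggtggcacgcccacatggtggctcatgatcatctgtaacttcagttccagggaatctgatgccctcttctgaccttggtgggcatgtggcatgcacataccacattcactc
Psme1, chr14:55578244-55578493, plus strand: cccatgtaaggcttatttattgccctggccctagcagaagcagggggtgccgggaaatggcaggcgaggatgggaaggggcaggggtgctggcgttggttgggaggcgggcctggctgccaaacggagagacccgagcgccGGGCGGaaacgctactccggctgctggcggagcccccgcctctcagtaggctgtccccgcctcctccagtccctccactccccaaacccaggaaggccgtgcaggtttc
Psme2, chr14:55591102-55591351, minus strand: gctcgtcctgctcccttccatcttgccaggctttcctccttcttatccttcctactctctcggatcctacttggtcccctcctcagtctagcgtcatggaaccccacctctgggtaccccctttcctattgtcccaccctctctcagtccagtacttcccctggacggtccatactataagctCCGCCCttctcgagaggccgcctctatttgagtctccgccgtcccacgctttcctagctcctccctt
Psmb5, chr14:54617996-54618245, minus strand: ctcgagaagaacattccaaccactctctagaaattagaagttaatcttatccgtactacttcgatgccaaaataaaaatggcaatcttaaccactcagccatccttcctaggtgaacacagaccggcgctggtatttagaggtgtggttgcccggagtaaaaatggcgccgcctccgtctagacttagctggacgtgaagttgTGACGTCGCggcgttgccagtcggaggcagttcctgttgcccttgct
Psmd12, chr11:107479278-107479527, plus strand: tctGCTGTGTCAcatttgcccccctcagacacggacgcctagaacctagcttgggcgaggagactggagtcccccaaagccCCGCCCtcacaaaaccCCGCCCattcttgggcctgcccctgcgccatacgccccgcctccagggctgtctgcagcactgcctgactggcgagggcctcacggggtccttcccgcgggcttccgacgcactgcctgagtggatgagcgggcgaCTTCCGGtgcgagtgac

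A window of this kind was found for 37 of the 45 genes, with 40 windows in all. The ETS motif was in 27.5% of them, against 6.91% of all 32851 windows in the table, and the GC box in 50.0%, against 32.7%. The antioxidant response element core was in 10% (Psmb5, Psmb6, Psmd9 and Psmd12), against 10.2% of all, and the CCAAT box in 32.5%, against 33.8%. The interferon motif was in 7.5% (Psmb3, Psmd4 and Psmd9), against 2.98%, and these letters were not in the windows printed here. The motifs as searched can overlap one another, and a match is a description of letters in the window.

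Other members that fell at HCN 2 h came from the core, the cap and the assembly factors. Psmd8, a 19S subunit, read 10.38, 10.42, 10.54 and 10.19 in air and 9.93, 9.51, 10.11 and 10.02 after HCN. No HCN array reached the lowest air array, the change was -0.49 ± 0.08 (adjusted p = 4.23e-06), and the call held without any 1 array. Without the 2 arrays of highest actin ratio it was -0.32 (adjusted p = 0.00582), and with the ratio in the fit -0.17 (adjusted p = 0.104). Psmg2 and Psmg3, chaperones of core assembly, fell by 0.49 ± 0.14 (adjusted p = 0.00603) and 0.43 ± 0.11 (adjusted p = 0.00253). Psmd9, a chaperone of the 19S base, fell by 0.45 ± 0.14 (adjusted p = 0.0115), and the inhibitor Psmf1 by 0.46 ± 0.13 (adjusted p = 0.00756). HCN 2 h replicate 2, which had the highest actin ratio, was the lowest array for Psmd8, Psmd9 and Psmf1. Without it Psmg2, Psmd9 and Psmf1 lost their call (-0.34, -0.29 and -0.30, with adjusted p = 0.0793, 0.133 and 0.104), and 11 proteasome probe sets changed in place of 23, 2 higher and 9 lower. Under the actin term Psmg2, Psmf1, Psmd9 and Psmg3 were at 0.01, 0.04, -0.14 and -0.36, none of them called, and Psmg3 was at -0.43 (adjusted p = 0.0287) without the 2 arrays of highest ratio. Without the 2 arrays of highest actin ratio 9 changed, 2 higher and 7 lower (14.8%, against 12.2% of all).

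The rises at HCN 2 h were in Psmc4, Psmd11 and Psmd5. Psmc4, an ATPase of the 19S base, read 9.09, 9.22, 9.14 and 9.04 in air and 9.86, 9.85, 9.59 and 9.79 after HCN on 1 of its 2 probe sets. Every HCN array was above every air array, with a change of 0.65 ± 0.15 (adjusted p = 0.00123). It held without any 1 array, with the arrays at a common median (0.79), with the actin ratio in the fit (0.66, adjusted p = 0.0206) and without the 2 arrays of highest ratio (0.57, adjusted p = 0.0414). The other probe set of Psmc4 fell by 0.28 ± 0.08 (adjusted p = 0.0105) in the same arrays, from 9.30 ± 0.06 (SD) to 9.02 ± 0.26. The direction for Psmc4 as a gene was therefore not settled. Psmd11, a 19S lid subunit, rose by 0.35 ± 0.09 (adjusted p = 0.0047) on its brightest probe set, and was at 0.23 (adjusted p = 0.0766) without HCN 2 h replicate 1. Psmd5, a 19S assembly chaperone, rose by 0.25 ± 0.09 (adjusted p = 0.0434), a call that 5 of the 8 left-out arrays ended, among them air 2 h replicate 2 (0.18, adjusted p = 0.199) and HCN 2 h replicate 1 (0.18, adjusted p = 0.206). Under the actin term Psmd11 and Psmd5 were at 0.30 and 0.20 (adjusted p = 0.0865 and 0.275), and without the 2 arrays of highest ratio at 0.28 and 0.16 (adjusted p = 0.0757 and 0.376). The other Psmc4 probe set was at -0.02 and -0.09 in these 2 fits, and not called.

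Probe sets of 1 gene also parted for other members at HCN 2 h. Psmb3, a constitutive beta subunit, fell by 0.42 ± 0.08 (adjusted p = 6.65e-05) on 1 of its 2 probe sets, while the other changed by 0.25. With arrays at a common median the other rose by 0.39 (adjusted p = 0.0052), so the direction for Psmb3 as a gene was not settled. The fall was -0.30 (adjusted p = 0.0174) without the 2 arrays of highest actin ratio and -0.16 (adjusted p = 0.208) with the ratio in the fit. The second probe set of Psmg2 changed by 0.02, and that of Psmd9 by -0.06. The plot of probe sets of a gene shows Psmc4 with Psmd7, Psmd11 and Psmf1, whose probe sets differed by 0.83, 1.21 and 1.06 in the comparison where they lay farthest apart among HCN 24 h and KCN 24 h.

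**Figure D4:**
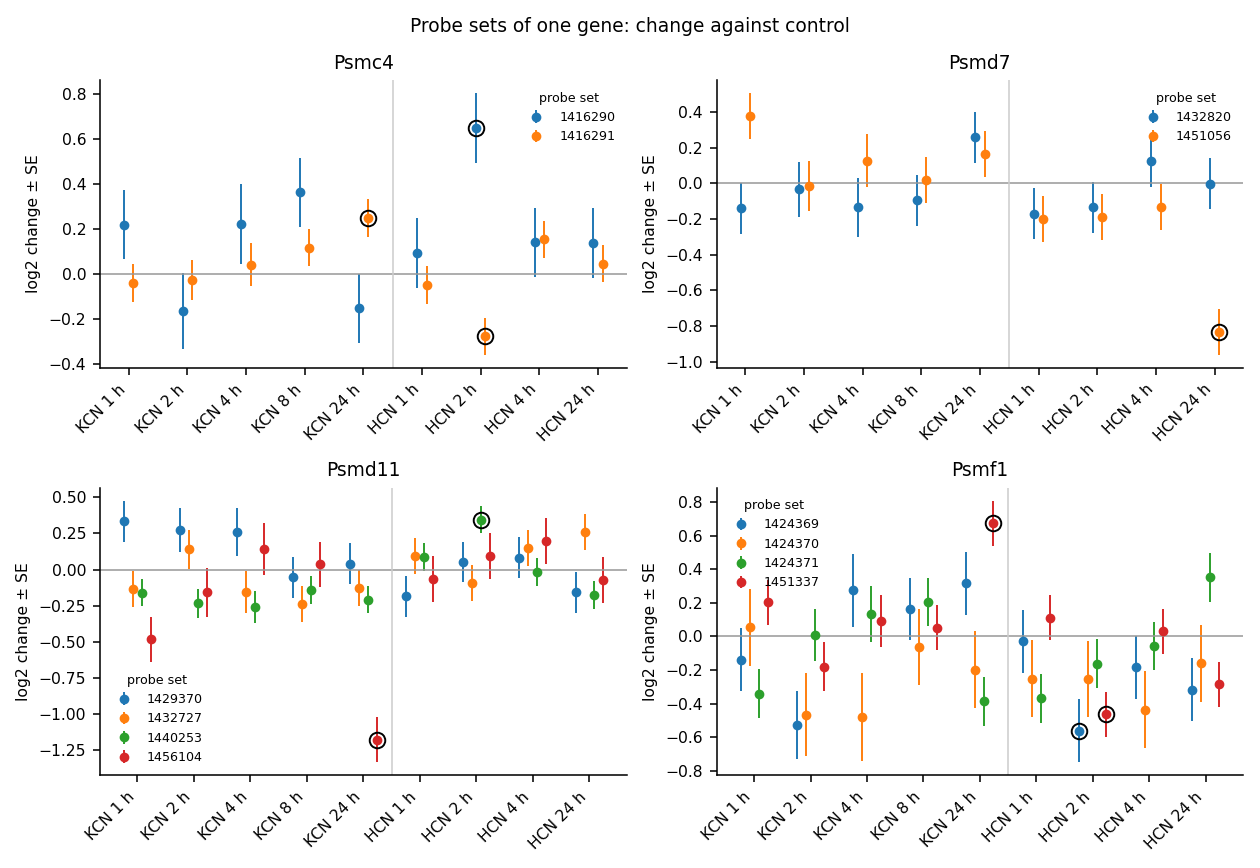
Log2 change ± SE of each tested probe set of Psmc4, Psmd7, Psmd11 and Psmf1 in the 9 cyanide comparisons; black rings mark an adjusted p under 0.05. The 2 probe sets of Psmc4 lie on opposite sides of 0 at HCN 2 h (0.65 and -0.28), and single probe sets carry the changes of Psmd7 at HCN 24 h (-0.83) and Psmd11 at KCN 24 h (-1.17).

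Markers of other cells moved at HCN 2 h too, where 8.79% of all probe sets rose and 16.5% fell. The neutrophil genes S100a8 and S100a9 rose by 1.98 ± 0.53 and 1.68 ± 0.52 (3 of 4 markers tested rose, with list levels of 5.22 to 6.38 after HCN and 4.35 to 5.27 in air). The endothelial genes Egfl7, Kdr and Pecam1 fell by 0.64 ± 0.13, 0.70 ± 0.19 and 1.20 ± 0.24 (3 of 5 fell, with list levels of 7.42 to 7.85 after HCN and 7.94 to 8.15 in air). Of the rest, Cdh5 had a higher mean after HCN (7.92, against 7.56 in air) and Tek a lower one (8.43, against 8.59). The part of the actin ratio in these marker changes was not tested. Of 6 lymphocyte markers Cd3g and Nkg7 fell, with list levels of 3.22 to 4.16 after HCN and 3.45 to 4.87 in air. The part of these cell types in the changes of the immunoproteasome genes was not tested.

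At 1 h after HCN a single member had changed. Psmd9 read 6.15, 6.53, 6.44 and 6.14 in air and 6.71, 7.02, 7.12 and 6.92 after HCN. All HCN arrays lay above all air arrays, the rise was 0.62 ± 0.14 (adjusted p = 0.00298), and it held without any 1 of the 8 arrays and with the actin ratio in the fit (0.59, adjusted p = 0.00237). The second, dim probe set of Psmd9 changed by 0.01. At 4 h Psme2 alone had fallen, from 9.92, 9.94, 9.94 and 9.996 in air to 9.62, 9.77, 9.62 and 9.70 after HCN. These groups did not overlap, and the change was -0.27 ± 0.09 (adjusted p = 0.0377). Leaving out 1 array kept the size (-0.30 to -0.25) but ended the call for 7 of the 8 arrays, HCN 4 h replicate 2 being the exception (highest adjusted p = 0.11). The count at HCN 4 h was 0 without air 4 h replicate 1 or 2 or HCN 4 h replicate 3 or 4, and 2, both higher, without air 4 h replicate 4. With arrays at a common median 3 rose and none fell. The neutrophil markers were higher on every HCN 4 h array (mean level 5.36 to 6.04) than in air at 4 h (4.17 to 4.63). Of 4 markers S100a8 and S100a9 were called as rises, where 2.87% of all probe sets rose. The part of the neutrophil markers in the fall of Psme2 was not tested.

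At 24 h after HCN 6 members were lower than in air and none was higher. That is 9.84% of the members, near the 9.24% of all probe sets that fell. By role they were 4 of 18 probe sets of 19S non-ATPase subunits, 1 of 4 of the activator caps and 1 of 9 of the alpha ring. No difference between roles was tested. Psmd7, a lid subunit, read 9.38, 9.29, 9.19 and 9.24 in air and 8.23, 8.21, 8.41 and 8.90 after HCN. The lowest air array lay above the highest HCN array, and the change was -0.83 ± 0.13 (adjusted p = 2.90e-06). It was -0.43 (adjusted p = 0.0139) with the actin ratio in the fit, the only member called there. Its dim second probe set changed by -0.00. Psmd4, which encodes a ubiquitin receptor, read 9.29, 9.12, 9.24 and 9.27 in air and 8.62, 8.62, 8.68 and 8.97 after HCN on 1 of its probe sets, again without overlap. Its change was -0.51 ± 0.13 (adjusted p = 0.00498). This was not the brightest probe set of Psmd4. Of 3 tested it alone was called, with changes from -0.51 to 0.07, so the fall was not shown for the gene as a whole.

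Psmd8, Psmd3 and Psme2 fell at both HCN 2 h and HCN 24 h. The HCN 2 h call of Psmd3 was close to the threshold (-0.32, adjusted p = 0.0495 in limma). It was lost without air 2 h replicate 1 (-0.35, adjusted p = 0.0552). Without HCN 2 h replicates 1 and 2 the change of Psmd3 was -0.02 (adjusted p = 0.942). With the actin ratio in the fit it was 0.11 (adjusted p = 0.629). At 24 h Psmd8 fell by 0.34 ± 0.08 (adjusted p = 0.00149), from 10.42 ± 0.07 (SD) to 10.09 ± 0.11. Psmd3 fell by 0.35 ± 0.12 (adjusted p = 0.0451), a call kept in 1 of 8 arrays left out, with changes of -0.44 to -0.32. Psme2 and the alpha subunit Psma6 fell by 0.27 ± 0.09 (adjusted p = 0.0206) and 0.21 ± 0.07 (adjusted p = 0.026), and lost their call in 3 and 4 of the 8. Psmd7, Psmd4 and Psmd8 kept their call with any 1 array left out. Adding the actin ratio put Psmd4, Psmd8, Psmd3, Psme2 and Psma6 at -0.09, -0.08, -0.02, -0.05 and -0.17 (adjusted p = 0.797, 0.609, 0.967, 0.864 and 0.274). The count at HCN 24 h was 3 without air 24 h replicate 4 and 3 without HCN 24 h replicate 3, and 4 with arrays at a common median. In these arrays Psmb8 read 7.78, 7.29, 6.64 and 7.0 after HCN and 7.16, 7.23, 6.88 and 7.42 in air. Psmb9 on its brighter probe set ran from 5.97 to 7.09 after HCN and from 6.43 to 6.80 in air, and Psmb10 from 8.78 to 9.24 and from 9.002 to 9.15, so all 3 overlapped with air at this time.

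At 24 h after KCN the inducible subunits stood on the other side of their control. Psmb8 read 6.27, 6.64, 6.72 and 6.46 in saline and 7.09, 7.25, 7.29 and 7.17 after KCN. The groups did not overlap and the rise was 0.68 ± 0.23 (adjusted p = 0.0466). Psmb9 read 3.60, 3.60, 3.36 and 3.71 in saline and 4.00, 4.25, 4.48 and 3.91 after KCN on its dimmer probe set, a rise of 0.59 ± 0.19 (adjusted p = 0.0351), also without overlap. Its brighter probe set changed by 0.64 and Psmb10 by 0.32, neither past the threshold. The calls were near the threshold: that of Psmb8 was kept for 1 of 8 arrays left out and that of Psmb9 for 3 of 8, with changes of 0.59 to 0.74 and 0.49 to 0.68. With the actin ratio in the fit the sizes were 0.67 and 0.62 (adjusted p = 0.081 and 0.0508). Neither gene was called with arrays at a common median. With quantile normalization within the route Psmb9 stayed called (0.56, adjusted p = 0.0478) and Psmb8 did not.

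Of 9 tested antigen presentation and interferon target genes 2 rose in the same arrays and 7 did not pass the test, where 6.79% of all probe sets rose. H2-K1, a class I molecule, rose by 1.08 ± 0.26 and Tapbp, which loads peptides onto it, by 0.49 ± 0.13, and the list median was 0.51, against 0.01 over all probe sets. Among macrophage markers Csf1r and Cd68 rose by 0.63 ± 0.15 and 0.76 ± 0.20 (2 of 6 rose), with list levels of 6.70 to 7.06 after KCN and 6.42 to 6.71 in saline. Of the rest, the means of Mrc1 (7.81, against 8.02) and Adgre1 (6.004, against 6.048) were lower after KCN. Those of C1qa (8.64, against 8.23) and Cd163 (5.85, against 5.71) were higher. Of 6 lymphocyte markers none passed the test, with list levels of 3.11 to 3.80 after KCN and 2.99 to 3.17 in saline. Their part in the rise of Psmb8 and Psmb9 was not tested.

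The other members that rose at KCN 24 h were Psmf1, Psmd9, Psmd3, Psmd8 and Psmc4. Psmf1, the core inhibitor, read 5.26, 5.67, 5.86 and 5.99 in saline and 6.18, 6.36, 6.36 and 6.58 after KCN on its brightest probe set, without overlap. The rise was 0.67 ± 0.13 (adjusted p = 0.000416) and held without any 1 array and with the actin ratio in the fit (0.41, adjusted p = 0.0123). Another, dim probe set of Psmf1 changed by -0.39 (adjusted p = 0.07). That probe set was called as a fall with the actin ratio (-0.48, adjusted p = 0.0391) and at a common median (-0.44, adjusted p = 0.0358). The direction for Psmf1 as a gene was therefore not settled. Psmd9 rose by 0.54 ± 0.14 (adjusted p = 0.00545), Psmd3 by 0.38 ± 0.12 (adjusted p = 0.0336), Psmd8 by 0.26 ± 0.08 (adjusted p = 0.0228) and Psmc4 by 0.25 ± 0.08 (adjusted p = 0.0372). With the actin ratio in the fit these 4 were at 0.38, 0.15, 0.08 and 0.12, none of them called. For Psmc4 this was the dimmer of its 2 probe sets, the one that fell at HCN 2 h. Its brighter probe set changed by -0.15 at KCN 24 h and was not called. The direction for Psmc4 as a gene was therefore not settled here either.

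The falls at KCN 24 h were in Psmd11, Psmd6, Psma4 and Psmd12. Psma4, an alpha subunit, fell by 0.26 ± 0.07 (adjusted p = 0.00959), from 10.06 ± 0.10 (SD) to 9.80 ± 0.10 without overlap, and by 0.38 (adjusted p = 6.78e-05) with the actin ratio in the fit. Psmd11 read 4.25, 4.53, 3.90 and 3.44 in saline and 2.96, 2.87, 2.70 and 2.90 after KCN on a dim probe set, a change of -1.17 ± 0.16 (adjusted p = 2.77e-07). The KCN values lie below the filter, so the size is uncertain, and its brightest probe set changed by -0.21 (adjusted p = 0.145). On the dim probe set saline 24 h had the highest mean of the 18 groups (4.03, against 3.17 over all arrays). That probe set also differed over time in the saline controls (F test, adjusted p = 6.14e-07). Psmd6 and Psmd12, both lid subunits, fell by 0.60 ± 0.21 (adjusted p = 0.0477) and 0.22 ± 0.08 (adjusted p = 0.0469), with overlapping groups. The fall of Psmd6 was on the dimmer of its 2 probe sets, and the brighter one changed by -0.12 and was not called. Without saline 24 h replicate 1 the count at KCN 24 h was 2 in place of 11 (Psmf1 and Psmd11), without KCN 24 h replicate 1 it was 5, without saline 24 h replicate 2 it was 5, and without KCN 24 h replicate 3 or 4 it was 6. With arrays at a common median 2 rose and 7 fell.

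At the earlier times after KCN the changes were single. At 1 h Psmb4, a beta subunit, read 10.62, 10.68, 10.63 and 10.74 in saline and 10.99, 10.89, 10.90 and 10.88 after KCN. The groups were apart by more than their spread, the rise was 0.25 ± 0.06 (adjusted p = 0.0074), and it held without any 1 of the 8 arrays, but not with the actin ratio in the fit (0.19, adjusted p = 0.0611). The airway and adipocyte markers were higher, and the actin ratio lower, on every KCN array than on any saline array at this time, and the part of these cell types in the change was not tested. The count at KCN 1 h was 2 without saline 1 h replicate 1, 2 or 3 or without KCN 1 h replicate 4. At 2 h Psma1, an alpha subunit, fell from 10.45, 10.43 and 10.32 in saline to 10.13, 10.10, 10.17 and 9.996 after KCN, by 0.30 ± 0.08 (adjusted p = 0.00958, n = 3 against 4 arrays in the limma fit). It no longer passed without saline 2 h replicate 1 (adjusted p = 0.0542) or KCN 2 h replicate 4 (adjusted p = 0.0543), and was at -0.29 (adjusted p = 0.00569) with the actin ratio in the fit. The 18S ribosomal control read 10.3 to 11.2 in saline at 2 h, against 12.5 to 12.6 at KCN 2 h. The endothelial genes Egfl7 and Kdr fell by 0.70 ± 0.14 and 0.68 ± 0.21 in the same comparison (2 of 5 markers, where 3.3% of all probe sets fell). The part of the 18S control or of the endothelial markers in the fall of Psma1 was not tested.

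At 4 h after KCN 2 members moved in opposite directions, with 3 arrays in each group. Psmb3 read 10.87, 10.75 and 10.71 in saline and 10.21, 10.12 and 10.33 after KCN on 1 of its 2 probe sets, a change of -0.56 ± 0.12 (adjusted p = 0.00957 in limma), while its other probe set changed by 0.00. Psma7, an alpha subunit, read 10.16, 10.01 and 10.29 in saline and 10.57, 10.46 and 10.53 after KCN, a rise of 0.37 ± 0.10 (adjusted p = 0.039). Both pairs of groups were without overlap, as were the airway and adipocyte markers, whose part was not tested. Psmb3 lost its call when saline 4 h replicate 1 (adjusted p = 0.0563) or the second KCN 4 h array (adjusted p = 0.081) was left out, and Psma7 without 5 of the 6 arrays (saline 4 h replicate 3 the exception). Leaving out either of these arrays brought the count to 0, and it was 1 with saline 4 h replicate 2, KCN 4 h replicate 1 or KCN 4 h replicate 3 left out.

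The control hearts were followed over time to see how the proteasome genes moved without cyanide. In saline 34 of 61 probe sets differed between the 5 times in an F test (55.7%, against 38.3% of all), and in air 10 of 61 between 4 times (16.4%, against 16.7%). Against saline 1 h, 9 rose and 7 fell at 2 h (26.2%, against 18.2%, 9.67% higher and 8.49% lower) and 1 rose at 4 h (1.64%, against 3.44%, 0.769% higher and 2.67% lower). At 8 h 9 rose and 2 fell (18%, against 8.94%, 3.98% higher and 4.96% lower), and at 24 h 4 rose and 2 fell (9.84%, against 8.92%, 3.64% higher and 5.27% lower). Against air 1 h limma called none at 2 h (against 0.459%, 0.12% higher and 0.34% lower), with 4 at an unadjusted p under 0.05. At 4 h 1 rose and 2 fell (4.92%, against 8.81%, 4.25% higher and 4.56% lower), and at 24 h 1 rose and 3 fell (6.56%, against 14.7%, 8.78% higher and 5.94% lower). The actin ratio of the saline groups alternated as well, with means of 0.841, 0.422, 0.86, 0.454 and 0.879 at 1, 2, 4, 8 and 24 h, while in air it was 0.386 to 0.502. With the ratio in the fit 23 probe sets differed over time in saline (37.7%, against 33.9% of all) and 12 in air (19.7%, against 17.7%). The low 18S control of saline at 2 h stood against 12.5 to 13.0 in the other saline groups.

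The member with the largest early rise in saline was Psmd3, a 19S lid subunit, which read 7.65, 7.65, 7.67 and 7.96 at 1 h and 8.92, 8.20 and 8.38 at 2 h. That is a rise of 0.77 ± 0.13 (adjusted p = 3.08e-05), and at 24 h the saline arrays were back between 7.46 and 7.67. Psmb7, the constitutive subunit with trypsin-like activity, read 10.40, 10.06, 10.14 and 10.26 at 1 h and 10.83, 10.98 and 11.05 at 2 h, a rise of 0.74 ± 0.16 (adjusted p = 0.000596). Psmb4 was higher at both 2 h (0.31 ± 0.06, adjusted p = 0.000267) and 8 h (0.29 ± 0.06, adjusted p = 0.000848). These 3 genes had non-overlapping arrays between 1 h and 2 h. By 24 h Psma4 and Psmb1 had risen by 0.35 ± 0.07 (adjusted p = 0.00062) and 0.31 ± 0.07 (adjusted p = 0.00211), and Psmd2, a 19S base subunit, had fallen by 0.40 ± 0.08 (adjusted p = 0.000717).

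In air the clearest movement was that of Psmc4 on the probe set that rose at HCN 2 h. It read 9.37, 9.02, 9.03 and 8.90 at 1 h and 9.82, 9.71, 9.74 and 9.68 at 24 h, with no overlap, a rise of 0.66 ± 0.15 (adjusted p = 0.00201). The HCN arrays at 2 h (9.59 to 9.86) therefore lay at the level that air reached at 24 h. The other probe set of Psmc4 also differed over time in air (F test, adjusted p = 0.0437). Its group means spanned 0.22, so it did not share a rise of this size, and the rise holds for 1 probe set of the gene. Psmd4, on its brightest probe set, fell by 0.30 ± 0.09 between air 1 h and air 24 h (adjusted p = 0.0117), and Psmd13 fell by 0.25 ± 0.09 (adjusted p = 0.0376). The count over time in air was 6 without air 24 h replicate 1 and 5 without air 24 h replicate 3, in place of 10.

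**Figure D5:**
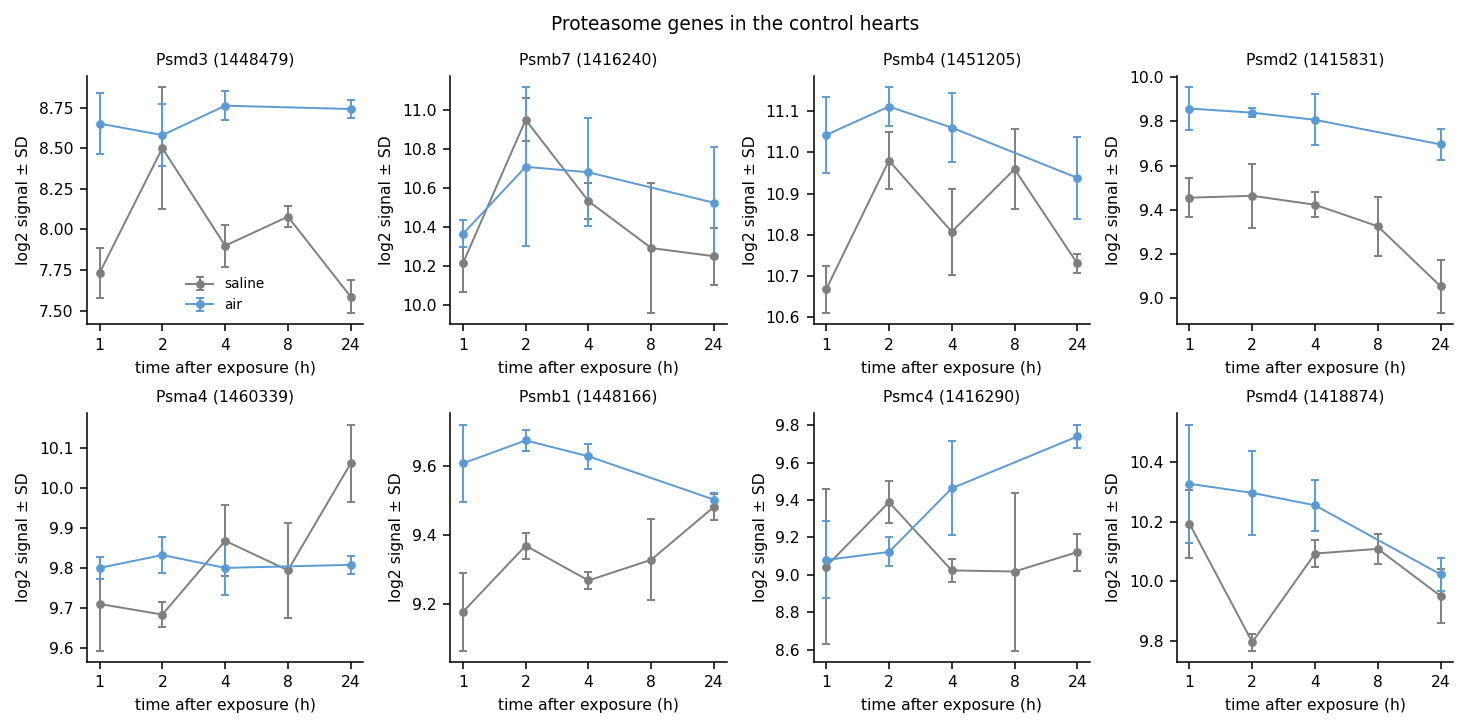
Mean log2 signal ± SD of 8 probe sets in the saline (grey) and air (blue) control hearts against time after exposure in hours, on an evenly spaced axis; the distributions of the arrays differ between the routes, so the height of the lines is not compared between them. Psmd3 and Psmb7 rise from 1 to 2 h in saline, and the probe set of Psmc4 shown here rises to 24 h in air.

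The change after HCN was also set against the change after KCN at the shared times, as a difference of differences. The routes differ in compound, dose and control, so this compares the exposures as given. At 1 h limma called no proteasome probe set (0.198% of all, 0.164% higher and 0.0336% lower), with 5 at an unadjusted p under 0.05. At 2 h 2 were higher and 4 lower after HCN (9.84%, against 5.73%, 2.15% higher and 3.58% lower). At 4 h Psmb3 alone was higher, by 0.85 ± 0.16 (1.64%, against 1.87%, 0.646% higher and 1.23% lower). At 24 h 5 were higher and 10 lower (24.6%, against 18.8%, 8.09% higher and 10.7% lower). At 2 h the lower members were Psmd8 (-0.50 ± 0.12), Psme1 (-0.49 ± 0.14), Psme2 (-0.45 ± 0.13) and Psmb2 (-0.35 ± 0.11), with adjusted p from 0.00592 to 0.0411, and the higher ones Psmc4 (0.81 ± 0.23) and Psmd11 (0.58 ± 0.14). At 24 h the lower ones included Psmd7 (-1.0 ± 0.18), Psmf1 (-0.96 ± 0.19), Psmd9 (-0.78 ± 0.19) and Psmd3 (-0.74 ± 0.18), with adjusted p of 5.12e-05, 0.00016, 0.00234 and 0.00169. The 4 inducible beta probe sets had differences of -0.74 to -0.35 at 24 h, and none passed the test. With the actin ratio in the fit none differed at 2 h and 3 at 24 h, all higher, among them Psmd11 and the dim probe set of Psmf1. With arrays at a common median 7 were higher and 6 lower at 24 h. The 2 h count was 3 without saline 2 h replicate 3 or air 2 h replicate 3 and 2 without HCN 2 h replicate 2.

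Genes around the proteasome were read from lists of partners, ubiquitin genes and regulators. Their counts stand beside 8.79% of all probe sets that rose and 16.5% that fell at HCN 2 h, 6.79% and 5.13% at KCN 24 h, and 1.38%, 2.87% and 5.08% that rose at HCN 1, 4 and 24 h. NFE2L1 is the transcription factor that raises proteasome genes when degradation falls short, working with small MAF proteins, and BACH1 competes for the same partners. Nfe2l1 fell after KCN, by 0.47 ± 0.13 at 1 h (adjusted p = 0.0241) and 0.54 ± 0.14 at 2 h (adjusted p = 0.00959). The small MAF gene Maff rose by 1.02 ± 0.26 at KCN 1 h and, after HCN, by 1.13 ± 0.26, 2.15 ± 0.26 and 1.81 ± 0.26 at 1, 2 and 4 h, and Mafk by 0.57 ± 0.14, 1.08 ± 0.14 and 0.54 ± 0.14. Of 7 tested genes of that list 3 rose (Maff, Mafk, Bach1) and 1 fell (Nfe2l2, by 0.26 ± 0.09) at HCN 2 h, 2 rose at HCN 1 h and 2 at HCN 4 h, and none rose and 2 fell at KCN 24 h (Ngly1 and Bach1). The list median was -0.08 at HCN 2 h and 0.12 at KCN 24 h.

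Among 8 tested partners of the proteasome, Pomp, which guides assembly of the core, fell by 0.24 ± 0.06 (adjusted p = 0.00339) at HCN 2 h together with Zfand2a (0.49 ± 0.11, adjusted p = 0.00076), and none rose. Zfand2a rose by 0.37 ± 0.11 (adjusted p = 0.0225) at KCN 24 h, and Usp14, a deubiquitinase of the 19S cap, fell by 0.53 ± 0.16 (adjusted p = 0.0266) at KCN 2 h. Of 9 heart muscle ubiquitin ligases 1 rose and 3 fell at HCN 2 h. Trim63, which marks muscle fibre proteins for degradation, rose by 0.59 ± 0.13, and Stub1, Mdm2 and Nedd4 fell by 0.60 ± 0.10, 0.50 ± 0.09 and 0.23 ± 0.07. Trim63 had also risen at KCN 2 h, by 0.69 ± 0.14 (adjusted p = 0.000709). Of 6 ubiquitin genes and shuttle factors none changed at HCN 2 h, and 3 rose at HCN 24 h (Ubqln1, Ube2d1 and Ubqln4, by 0.28 ± 0.06, 0.57 ± 0.14 and 0.38 ± 0.13).

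The probe sets whose group means ran most like those of Psmb8 were sought within each route, as a description with no test. Over the 8 inhalation groups the highest Pearson correlations were with Myo19 (0.986), Psmb10 (0.982), Pafah1b3 (0.977), Pigm (0.973) and Prkcz (0.970). Over the 10 injection groups they were with Hfe (0.931), Il10rb (0.920), Plbd1 (0.898), Ing4 (0.897) and Lgi2 (0.894). Psmb10 was the only other proteasome gene among these, and the points share their arrays and their normalization.

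Members with small changes on the deposited scale included the lid deubiquitinase Psmd14, with changes of -0.08 to 0.16 over the 9 comparisons, the base subunit Psmd1 (-0.10 to 0.10) and Psmb6 (-0.08 to 0.12). None of these passed the test in any cyanide comparison on the deposited scale, and with arrays at a common median Psmd14 was called at HCN 2 h (0.19, adjusted p = 0.049). The standard errors of these changes were 0.06 to 0.08. The alpha subunit Psma3 ranged from -0.14 to 0.15 and the assembly chaperone Psmg1 from -0.25 to 0.08, also without a call on that scale. With arrays at a common median Psma3 was called at HCN 2 h (0.30, adjusted p = 0.00061), HCN 4 h (0.22, adjusted p = 0.0254) and KCN 24 h (-0.19, adjusted p = 0.045), and its difference between routes at 24 h was 0.27 (adjusted p = 0.0284). Psmb7 ranged more widely, from -0.45 at KCN 4 h to 0.34 at KCN 1 h, with standard errors of 0.15 to 0.17 and no call.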

How the data were processed

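RNA from 69 mouse hearts, extracted with RNeasy kits per the labels, was measured on Affymetrix HT MG-430 PM arrays. The authors deposited a series-wide table of log2 signals per probe set. The submitters' processing notes name MAS5, with no version and no role; the normalization and the genome build are not stated. That the scale is log2 was inferred from its range (1.83 to 13.94). The 2 routes have different distributions, so levels were compared only within a route.

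Probe sets carry the gene names of GEO's platform annotation, and all 45 member genes had a RefSeq entry. A probe set was tested if its highest group mean was above 3.23, the midpoint of all group means, so that 26773 remained. With limma 3.58.1 (R 4.3.3, with data.table in version 1.17.8) a mean was fitted for each of 18 groups, leaving 51 residual degrees of freedom, to which the trended eBayes prior added 5.53. Contrasts were two-sided, and Benjamini-Hochberg adjustment ran over all tested probe sets of a contrast. The procedure was tested on simulated data. Replicate numbers were checked for pairing: 9 of 34 same-numbered pairs had deviations correlated above 0.1, and no comparison had all of its pairs above it, so arrays were treated as unpaired.

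Named members are, per comparison, up to 8 rises and 8 falls of largest size among those past the threshold, with 1 probe set per gene and direction, and a fixed set of catalytic, cap and assembly genes. Others, such as second probe sets of a gene, were named after their values were seen. The members and gene lists were chosen with earlier results of these data known. Alternatives were quantile normalization, a common median, other filters, no trend, a replicate block, fits per route or per comparison, the actin ratio as a covariate and leaving out each array. Promoter windows come from RefSeq (GRCm38.p6).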

Additional observations from a re-analysis of the deposited data

Results flagged for a closer look

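Each named change after cyanide was checked for single arrays in its groups of 4 by Dixon's criterion (critical ratio 0.829), which made 63 checks. In 5 of them 1 array lay apart from the other 3. A single check flags about 1 in 20 by chance. The same arrays recur across the checks, so the number flagged is not read against that rate. Psmb8 in air 2 h replicate 1 read 8.31, against 7 to 7.19 on the other arrays. Psmb4 in KCN 1 h replicate 1 read 11, against 10.88 to 10.90, Psmd6 in saline 24 h replicate 1 read 9.36, against 9.61 to 9.65, Psmd9 in air 2 h replicate 3 read 6.75, against 6.57 to 6.59, and Psmd3 in HCN 24 h replicate 4 read 8.64, against 8.29 to 8.32.

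The change after HCN differed from the change after KCN, by the interaction contrast in limma, for 6 members at 2 h, 1 at 4 h and 13 named at 24 h. At 2 h the differences were 0.81 for Psmc4, 0.58 for Psmd11, -0.50 for Psmd8, -0.49 for Psme1, -0.45 for Psme2 and -0.35 for Psmb2. At 4 h the difference was 0.85 for Psmb3, on the probe set that fell at KCN 4 h. At 24 h the members higher after HCN were Psmd11 on the dim probe set that was high in saline at 24 h (1.10), Psmf1 on a dim probe set (0.74), Psmd12 (0.34), Psmb1 (0.31) and Psma3 (0.27). Those lower after HCN were Psmd7 (-1.0), Psmf1 on its brightest probe set (-0.96), Psmd9 (-0.78), Psmd3 (-0.74), Psmd8 (-0.59), Psmd4 (-0.54), Psmg2 (-0.53) and Psme2 (-0.48).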

How the results depend on the processing

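Of 54 named changes of proteasome genes, all kept their direction and call with the replicate block, 48 with quantile normalization, 49 without the trend, 38 without a filter, 36 with arrays at a common median, 35 when only the groups compared were fitted, and 12 with the actin ratio as a covariate. All 50 that passed the stricter filter kept theirs, as did 30 of 34 in fits per route. With the actin ratio 4 changed sign: Psmg2 and Psmf1 at HCN 2 h to 0.013 and 0.041, and Psmd4 and Psmg2 in the difference between routes at 24 h to 0.16 and 0.12. The cause was not tested.

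Counts of members called moved by over 1.5 times as follows. Among these alternatives the share of all probe sets is given above only with the actin ratio and without the 2 arrays of highest ratio. The counts of the other alternatives, and those with 1 array left out, are not set against the whole array. At KCN 1 h the 1 call became 2 with the stricter filter, the replicate block and only the groups compared. At KCN 2 h it became 0 with only the groups compared and 2 with the actin ratio. At KCN 4 h the 2 became 1 with quantile normalization, a common median, no filter, no trend, fits per route and the actin ratio, and 0 with only the groups compared. At KCN 24 h the 11 became 6 without a filter and 4 with the actin ratio. At HCN 1 h the 1 became 2 with only the groups compared. At HCN 2 h the 23 became 5 with only the groups compared, 3 with the actin ratio and 9 without the 2 arrays of highest ratio. At HCN 4 h the 1 became 3 with a common median, 0 without a filter, and 2 with the stricter filter, the replicate block and the actin ratio. At HCN 24 h the 6 became 1 with the actin ratio. The difference between routes at 2 h became 3 with a common median and 0 with only the groups compared, the actin ratio, or without those 2 arrays; at 4 h it became 2 with a common median and 0 with only the groups compared; at 24 h it became 3 with the actin ratio. The count over time became 21 in saline with only the groups compared, and in air 5 with fits per route and 3 with only the groups compared. With the replicate number as a block the count at HCN 2 h stayed within 1.5 times of 23.

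Leaving out 1 array at a time gave counts of 1 to 2 (KCN 1 h), 0 to 1 (2 h), 0 to 2 (4 h), 0 (8 h) and 2 to 10 (24 h). After HCN they were 1 (1 h), 11 to 26 (2 h), 0 to 2 (4 h) and 3 to 9 (24 h). The differences between routes gave 0, 2 to 8, 1 and 11 to 17 at 1, 2, 4 and 24 h, and the controls over time 24 to 35 in saline and 5 to 9 in air. With 3 or 4 arrays per group small changes cannot be seen, and probe sets near 3.23 lie close to background, where sizes are uncertain.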
